A study of Mus musculus with 61 samples.

Results

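The ependymal cilia genes are 6 genes of the motile cilium, Foxj1, Dynlrb2, Tekt1, Ak7, Spef2 and Ccdc153, chosen by name and followed over all 61 fractions of the mouse brain in 3 cutting planes. A gene was read from the probe whose RefSeq identifier named it, and from the probe with the highest mean intensity where there were several. In this way 3 of the 6 genes, Foxj1, Dynlrb2 and Tekt1, had a probe among the 16358 genes named on the array, and Ak7, Spef2 and Ccdc153 were not analysed here. Dynlrb2 and Tekt1 had 2 probes each and Foxj1 had 1, and the probes used were well above background on all 61 arrays.

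The fractions came from 6 untreated C57BL/6J male mice aged 8 weeks, 1 brain per series, and each fraction pooled 200 frozen sections of 5 µm, which made a slab 1 mm thick. Series S (9 fractions, left to right), C (13, posterior to anterior) and H (6, dorsal to ventral) were cut in the sagittal, coronal and horizontal planes, and series So (10), Co (16) and Ho (7) were cut slightly obliquely to the same planes in other mice. Total RNA of each slab was hybridised to a single-colour array, so that between 57.9 and 73.1% of the probes of an array were well above background. The S fractions are numbered 1 to 9 here. Fractions of the 2 mice of a plane form 28 pairs (s1 to s9, c1 to c13, h1 to h6). These pairs are the only replicates. The paper paired the fractions with the highest correlation over all probes, and let fraction order decide where several fractions shared it. A p-value therefore measures the spread between 2 mice in fractions already matched on these intensities, part of which is the difference in cutting angle. Matching of this kind can make the spread smaller, which was not tested. Series S was scanned on a different day from So, except S1, which was scanned with So. Series C was scanned on a different day from Co, and C13 was scanned with H and Ho, which shared a day. Values given within a mouse are therefore also within a scan day except where S1 or C13 enters.

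Ependymal cells line the cerebral ventricles and the central canal, and tufts of motile cilia on their surface move the cerebrospinal fluid. A motile cilium holds an axoneme of microtubule doublets with dynein arms. Most other brain cells have a single primary cilium, which lacks the dynein arms. Foxj1 encodes the forkhead transcription factor that switches on the programme of motile cilia. Dynlrb2 encodes a roadblock-type light chain of dynein, and Tekt1 encodes tektin 1, a filament protein within the axonemal doublets. The epithelium of the choroid plexus lies in the same ventricles and can enter the same slabs.

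The promoters of Dynlrb2 and Tekt1, whose levels moved most closely together, are shown because both hold the half-site of the X-box, the element read by the RFX factors of ciliated cells. Each run is the 250 bases before the transcription start from RefSeq (build GRCm38.p6), read 5′ to 3′ on the strand of the gene, with matches to GTTGCC or its reverse complement GGCAAC in capitals. Dynlrb2 lies on the + strand (chr8:116504765-116505014) and Tekt1 on the - strand (chr11:72361883-72362132).
Dynlrb2: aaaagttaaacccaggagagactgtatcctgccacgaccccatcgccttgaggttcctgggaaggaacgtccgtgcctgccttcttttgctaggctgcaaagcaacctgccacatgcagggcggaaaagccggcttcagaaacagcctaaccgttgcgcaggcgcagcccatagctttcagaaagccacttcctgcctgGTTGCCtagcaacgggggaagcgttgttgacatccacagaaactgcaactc
Tekt1: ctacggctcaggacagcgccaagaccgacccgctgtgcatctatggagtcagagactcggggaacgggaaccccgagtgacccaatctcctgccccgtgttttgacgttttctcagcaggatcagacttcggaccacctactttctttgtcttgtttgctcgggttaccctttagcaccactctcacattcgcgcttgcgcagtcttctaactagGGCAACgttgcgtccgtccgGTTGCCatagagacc
The match in Dynlrb2 began 51 bases before the start. The matches in Tekt1 began 35 and 15 bases before it, and a second listed start of Tekt1 held none. Of all 32851 promoters of this length, 10.4% held GTTGCC on either strand. The forkhead core TGTTTA, searched on both strands, occurred in neither of the printed promoters and in 12.0% of all promoters. The table gave no promoter for Foxj1. Among the genes without a probe, the promoter of Ccdc153 held 1 match to GTTGCC, that of Ak7 held 1 match to TGTTTA, and that of Spef2 held neither. A match is a description of the letters and was not tested as a binding site.

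Levels are given as the log2 intensity of a probe minus the 75th percentile of its array, so that 0 is the level of that percentile. Over the 61 fractions Foxj1 ranged from -2.67 in H1 through a median of -0.57 to 0.60 in C1, a 9.66-fold span. Dynlrb2 ranged from -1.91 in Co7 through a median of -0.27 to 1.75 in Co16, a 12.7-fold span. Tekt1 ranged from -1.45 in C2 through a median of 0.12 to 1.22 in S5, a 6.36-fold span. Each gene thus had its highest value in a different series, and the Dynlrb2 maximum lay in a fraction that had no partner. All 3 genes varied over the 28 pairs beyond the spread between the mice of a pair (limma moderated F of 16.4 for Foxj1, 14.3 for Dynlrb2 and 11.5 for Tekt1, with adjusted p of 3.42e-10, 1.65e-09 and 1.8e-08), as did 61.3% of all 36573 probes detected. The median F over all detected probes was 2.58. In the sagittal pairs alone, only Foxj1 passed the test, with adjusted p of 0.0598 for Dynlrb2 and 0.135 for Tekt1.

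**Figure D1:**
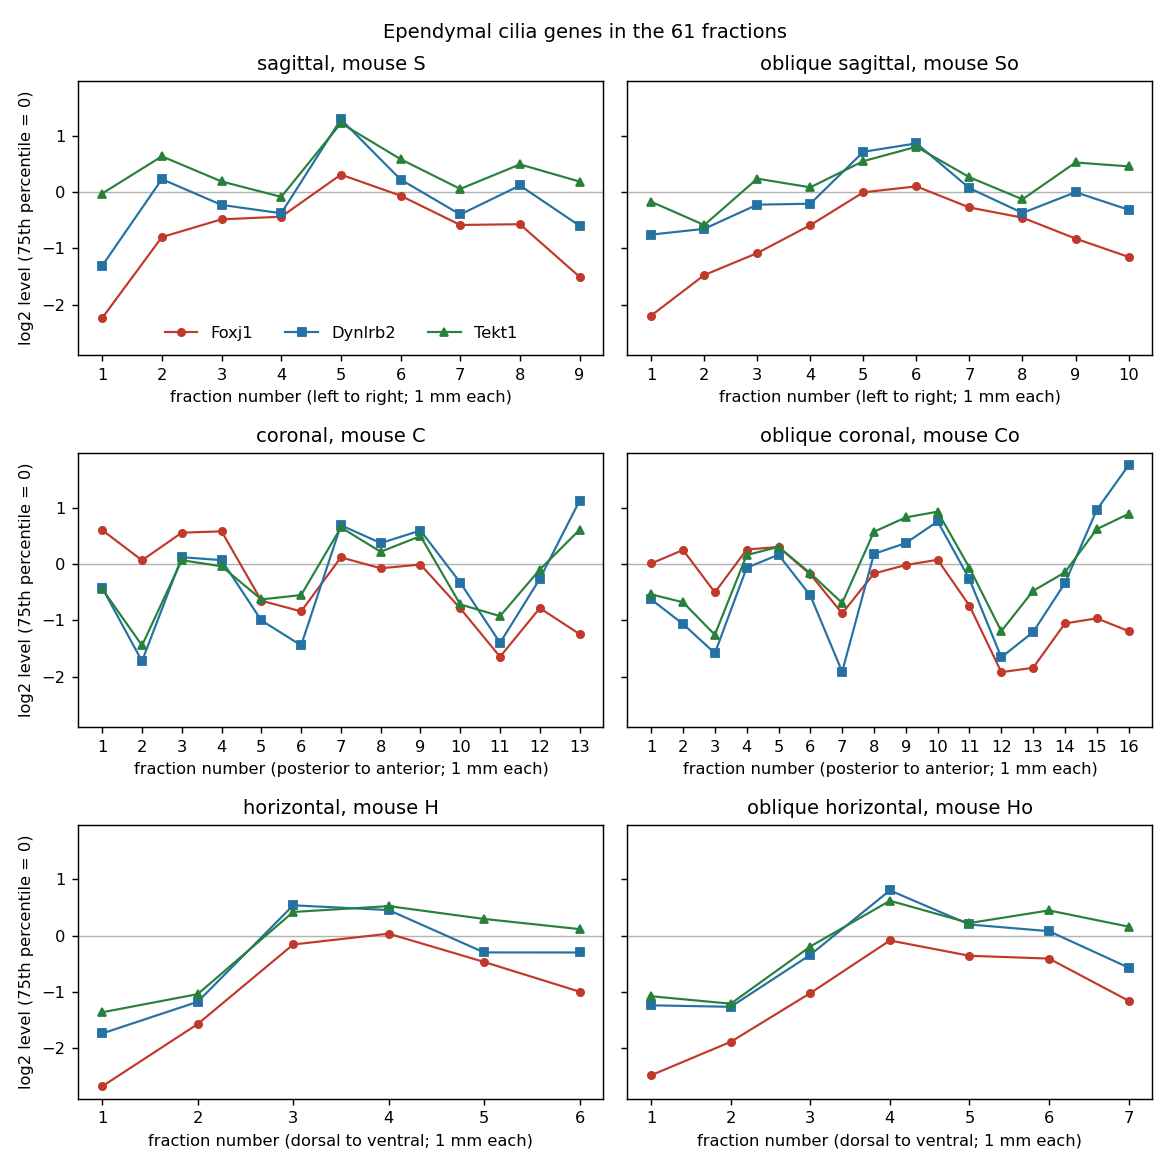
Log2 levels of Foxj1, Dynlrb2 and Tekt1 (vertical axis, 0 is the 75th percentile of the array) in every fraction of the 6 mice, against the fraction number along the cutting axis (horizontal axis). The lines join the fractions of 1 mouse. All 3 genes peaked at S5 and So6 and were low in H1, H2, Ho1 and Ho2, whereas at the anterior end (C13, Co15, Co16) Dynlrb2 and Tekt1 were high and Foxj1 was low.

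Along the dorsoventral axis the genes rose together from the top of the brain to the middle. In the dorsal fractions Foxj1 stood at -2.67 and -1.57 in H1 and H2 and at -1.88 and -1.02 in their partners Ho2 and Ho3. In the middle fractions it stood at -0.16 and 0.04 in H3 and H4 and at -0.08 and -0.36 in Ho4 and Ho5. The middle and dorsal fractions did not overlap for Foxj1 in either mouse. Dynlrb2 stood at -1.73, -1.17, -1.26 and -0.34 in the dorsal fractions H1, H2, Ho2 and Ho3, against 0.54, 0.46, 0.80 and 0.20 in the middle fractions H3, H4, Ho4 and Ho5. Tekt1 stood at -1.36, -1.04, -1.21 and -0.19 in the dorsal and at 0.42, 0.53, 0.62 and 0.23 in the middle fractions. Neither gene overlapped between the zones, which also held for 7.77% of all probes in this direction and 6.82% in the other.

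The differences of middle minus dorsal were 1.64 ± 0.17 (SE) for Foxj1, 1.63 ± 0.20 for Dynlrb2 and 1.40 ± 0.18 for Tekt1 on the log2 scale, between 2.63- and 3.13-fold. All 3 genes were called higher (limma adjusted p between 2.28e-07 and 3.67e-06) and none lower, against 4.44% of all probes called higher and 1.91% lower. Under scaling to the array median instead of the 75th percentile, the share of higher among all calls in this comparison was 47.5% in place of 69.9%, and the 3 genes remained higher. The rise was larger in H than in Ho for each gene, for example 2.06 against 1.23 for Foxj1, a difference between mice that was not tested.

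From the middle to the ventral fractions Foxj1 and Dynlrb2 fell again, by less than they had risen. Foxj1 stood at -0.47 and -0.99 in H5 and H6 and at -0.41 and -1.15 in Ho6 and Ho7, all below its 4 middle values. Dynlrb2 stood at -0.30 in both H5 and H6 and at 0.08 and -0.57 in Ho6 and Ho7. The ventral and middle fractions did not overlap for these 2 genes, a pattern shown by 8.29% of all probes in this direction and 5.32% in the other. Their differences of ventral minus middle were -0.61 ± 0.17 (SE, adjusted p = 0.0435) and -0.77 ± 0.20 (adjusted p = 0.0275) in limma. Thus 2 of 3 genes were called lower, against 1.59% of all probes, and none higher, against 1.77%. For Tekt1 the difference was -0.19, with a 95% confidence interval from -0.56 to 0.18 (adjusted p = 0.783). The calls rested on few arrays. Without any one of H3, H4, H5, Ho4, Ho5 or Ho7 neither gene passed the test, without H6, Ho6, C8 or Co9 only Dynlrb2 passed, and under median scaling Foxj1 had an adjusted p of 0.06.

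Along the left-right axis the genes were highest at the midline. Foxj1 ran from -2.23 in S1 through a median of -0.57 to 0.31 in S5, and from -2.19 in So1 through a median of -0.71 to 0.10 in So6. In the middle fractions (s4 to s6) Foxj1 lay between -0.44 and 0.31 and in the outer fractions (s1, s2, s8, s9) between -2.23 and -0.57, without overlap, as did 4.68% of all probes in this direction and 4.48% in the other. The fall to the sides was gradual for Foxj1, with the lowest value of each mouse in its leftmost fraction. Dynlrb2 peaked at 1.29 in S5 and 0.86 in So6, and its middle and outer fractions overlapped because S4 stood at -0.37 and S2 at 0.23. Tekt1 also peaked in S5 and So6, at 1.22 and 0.80, but had further maxima near the sides, with 0.64 in S2, 0.49 in S8 and 0.53 in So9. Its lowest value in S, -0.08, was in S4, next to the peak, whereas its lowest value in So, -0.58, was in the outer fraction So2. Tekt1 minus Foxj1, as the mean of the mice, was 1.55 at s1 and 1.65 at s9, against 0.45 to 0.81 in the middle pairs, a difference that was not tested.

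The differences of middle minus outer were 1.14 ± 0.13 (SE, adjusted p = 1.1e-07) for Foxj1 and 0.81 ± 0.15 (adjusted p = 0.000202) for Dynlrb2 in limma. For Tekt1 the difference was 0.32 ± 0.14, with a 95% confidence interval from 0.04 to 0.60 and an adjusted p of 0.114. Hence 2 of 3 genes were called higher, against 10.6% of all probes, and none lower, against 9.01%. Within S the differences were 1.21, 0.77 and 0.25 for Foxj1, Dynlrb2 and Tekt1, and within So they were 1.07, 0.85 and 0.38. Without S1 and its partner, the fraction scanned apart from the rest of S, the differences were 0.93, 0.60 and 0.13, and without S4 Tekt1 passed the test at 0.42 (adjusted p = 0.0423). Under median scaling the share of higher among all calls was 31.7% in place of 54.0%, with Foxj1 and Dynlrb2 still called higher.

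Along the coronal axis the profiles had several maxima, and Foxj1 parted from the other genes at the ends. Dynlrb2 and Tekt1 had a first maximum at c3 and c4, another at c7 to c9 and a last one at c13. The means of the 2 mice for Dynlrb2 were 0.03 and 0.12 at c3 and c4, 0.43, 0.37 and 0.67 at c7 to c9 and 1.04 at c13. Dynlrb2 was lowest at c2, with -1.65, before the first maximum, and at c6 and c11, with -1.68 and -1.53, between the maxima. The same levels were low for Tekt1, at -1.35, -0.62 and -1.06. Foxj1 shared the maximum at c3 and c4, with means of 0.40 and 0.44, and that at c7 to c9, with means between -0.05 and 0.03. It was also low at c2, c6 and c11, with -0.22, -0.86 and -1.78. It differed at the ends of the axis. At the posterior end it stood at 0.60 in C1, its highest value of all fractions, and at 0.01 in Co1 and 0.25 in Co2 of the other mouse, and at the anterior end at -1.24 in C13, -0.97 in Co15 and -1.19 in Co16. There Dynlrb2 stood at 1.12, 0.96 and 1.75 and Tekt1 at 0.61, 0.62 and 0.89 in the same 3 fractions. Foxj1 was read from a single probe, whose specificity was not tested. C13 was scanned on another day than the other C fractions, and Co15 and Co16 were scanned with the rest of Co.

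From the caudal (c1 to c4) to the middle zone (c5 to c9) Foxj1 fell by 0.53 ± 0.12 (SE, limma adjusted p = 4e-04), while Dynlrb2 rose by 0.37 ± 0.14 (adjusted p = 0.025) and Tekt1 by 0.58 ± 0.12 (adjusted p = 0.000186). So 2 of 3 genes were called higher and 1 lower, against 19.1% and 29.9% of all probes. The direction of each gene was the same in C and Co, at -0.74 and -0.31 for Foxj1, 0.33 and 0.40 for Dynlrb2, and 0.50 and 0.66 for Tekt1. The zones overlapped for each of the 3 genes, whereas 6.64% of all probes were higher and 4.40% lower without overlap. With the slide as a random block the Dynlrb2 difference was 0.31 with an adjusted p of 0.286, and it also missed the test without any one of C6, C7, Co2, Co4 or Co6. Under median scaling 52.1% of all calls were higher, in place of 39.0%.

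From the middle to the rostral zone (c10 to c13) Foxj1 fell by 0.88 ± 0.12 (SE, limma adjusted p = 7.02e-07) and Tekt1 by 0.41 ± 0.12 (adjusted p = 0.012). For Dynlrb2 the difference was -0.08, with a 95% confidence interval from -0.35 to 0.20 (adjusted p = 0.731), and its rostral fractions ran from -1.66 through a median of -0.30 to 1.12. The zones overlapped for each of the 3 genes, and 0.446% of all probes were higher and 0.760% lower without overlap. Accordingly 2 of 3 genes were called lower and none higher, against 13.0% of all probes in each direction. Tekt1 missed the test without C10 (adjusted p = 0.0553) and with the slide as a random block (adjusted p = 0.0666). Under median scaling 61.4% of all calls were higher, in place of 49.9%.

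The ends of the axis were set against each other after the values had been seen. Foxj1 was lower in the rostral than in the caudal zone by 1.41 on the log2 scale (difference -1.41 ± 0.12, SE, limma adjusted p = 3.66e-11), a 2.65-fold difference. Its 8 caudal fractions ran from -0.50 through a median of 0.28 to 0.60 and its 8 rostral fractions from -1.92 through -1.01 to -0.74, without overlap, as did 6.25% of all probes in this direction and 5.65% in the other. The differences for Dynlrb2 and Tekt1 were 0.29 (95% confidence interval from 0.00035 to 0.58, adjusted p = 0.0939) and 0.18 (from -0.08 to 0.44, adjusted p = 0.271). That made 1 of 3 genes lower and none higher, against 27.5% and 20.2% of all probes. Median scaling shifted the median of all probes in this comparison by 0.15 and raised the share of higher calls from 42.3 to 59.4%, and under it both Dynlrb2 (0.44, adjusted p = 0.0124) and Tekt1 (0.32, adjusted p = 0.0343) passed as higher, while Foxj1 stayed lower. Without C1, Dynlrb2 passed as well (adjusted p = 0.0389).

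A difference of 2 genes on the same array does not depend on the scaling of that array. The level of Foxj1 minus that of Dynlrb2 went from a mean of 0.83 ± 0.56 (SD, n = 4 caudal pairs) to -0.87 ± 0.86 (SD, n = 4 rostral pairs). Foxj1 minus Tekt1 went from 0.68 ± 0.44 to -0.90 ± 0.57 over the same pairs. Dynlrb2 minus Tekt1 went from -0.15 to -0.03. These differences were chosen after the parting of Foxj1 had been seen, and the 8 pairs are neighbouring levels of the same 2 brains, so they are a description with no test.

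**Figure D2:**
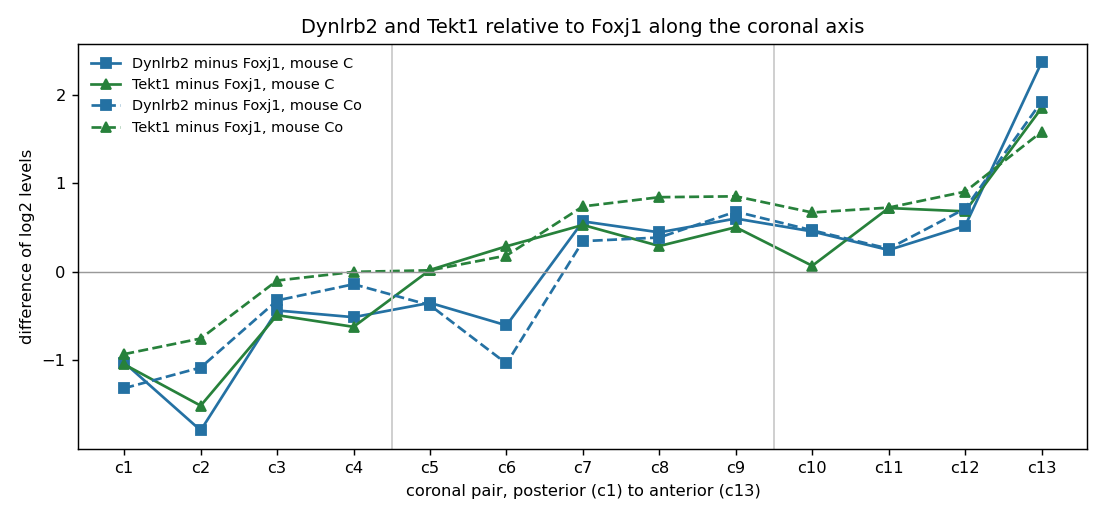
Level of Dynlrb2 (squares) and of Tekt1 (triangles) minus the level of Foxj1 on the same array, in log2 units (vertical axis), at the 13 coronal pairs from posterior to anterior (horizontal axis), for mouse C (solid lines) and mouse Co (dashed lines). Vertical lines separate the caudal, middle and rostral zones. Both differences were negative or near 0 in the caudal pairs and reached their highest means, 2.15 and 1.72 in both cases at c13.

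**Figure D3:**
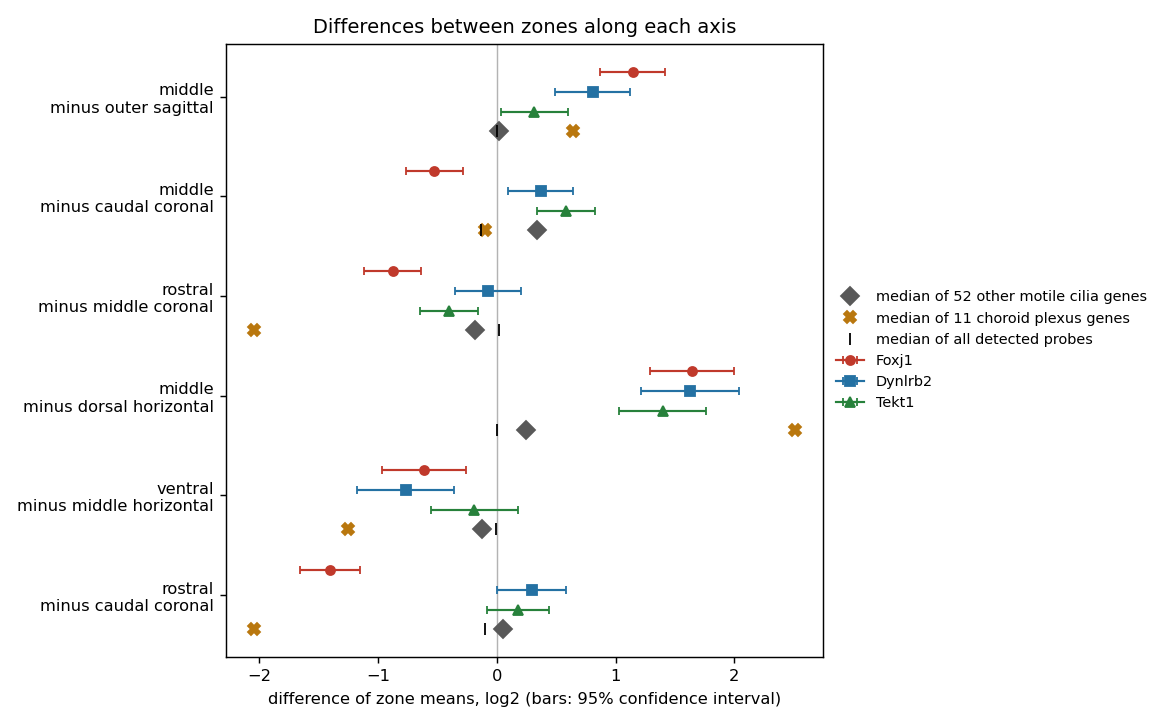
Difference of zone means on the log2 scale (horizontal axis) for Foxj1, Dynlrb2 and Tekt1, with 95% confidence intervals as bars, in each comparison (vertical axis). The marks below them are medians over 52 other motile cilia genes, 11 choroid plexus genes and all detected probes. The 3 genes lay together in middle minus dorsal horizontal, between 1.40 and 1.64, and Foxj1 lay apart from the others in the coronal comparisons with the caudal zone. In rostral minus middle coronal, Tekt1 at -0.41 lay between Foxj1 at -0.88 and Dynlrb2 at -0.08.

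The relation between the genes depended on the plane. Dynlrb2 and Tekt1 correlated over the 61 fractions with a Pearson r of 0.90, and with 0.84, 0.92 and 0.94 in the 19 sagittal, 29 coronal and 13 horizontal fractions. Foxj1 correlated with Dynlrb2 at 0.50 over all fractions, at 0.85 in the sagittal, 0.24 in the coronal and 0.96 in the horizontal fractions. With Tekt1 it correlated at 0.45 over all fractions, at 0.62, 0.24 and 0.94 in the 3 planes. The relation of Foxj1 to both other genes was thus weakest in the coronal series. Without the 2 most rostral pairs and Co16, the coronal values were 0.60 for Dynlrb2 and 0.48 for Tekt1. These are descriptions over points that share brains, neighbouring tissue and array scaling, with no test. The second probes of Dynlrb2 and Tekt1 followed the first with r of 0.96 and 0.97.

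**Figure D4:**
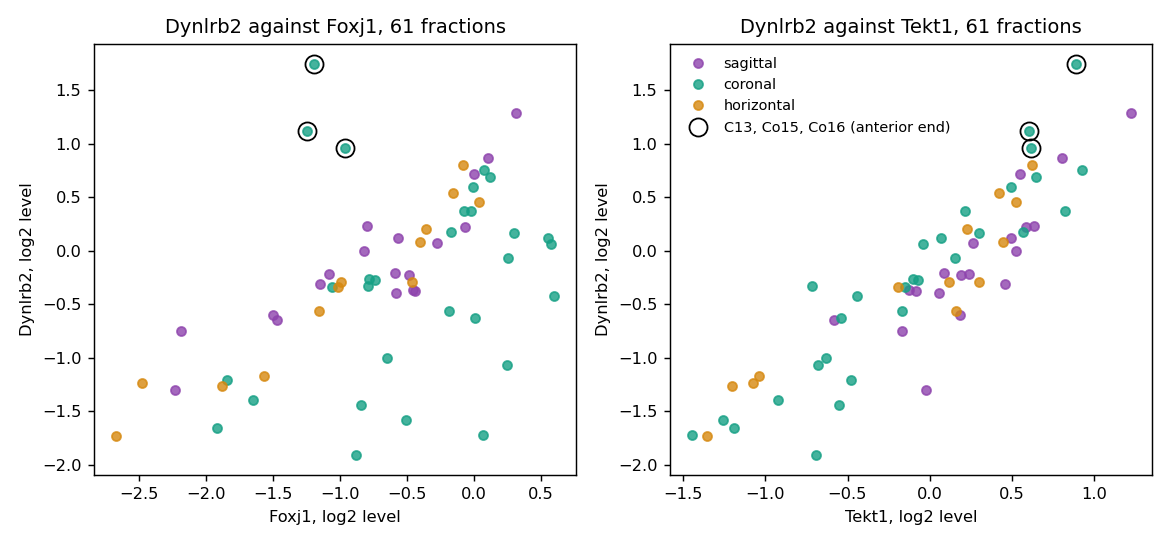
Log2 level of Dynlrb2 (vertical axes) against that of Foxj1 (left) and Tekt1 (right) in the 61 fractions, 1 point per fraction and coloured by plane. Circles mark C13, Co15 and Co16 at the anterior end, which lie above the other points of like Foxj1 level in the left panel (Pearson r = 0.50 over all points) and at the upper end of the trend in the right panel (0.90).

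The genes most like the members were found among 15517 other named genes by their correlation with the mean of the standardised profiles of the 3 genes. The closest was Mlf1 (r = 0.94), followed by Lrrc46 (0.92), Mns1 (0.90), Efhb (0.88), Iqcg (0.87), Rsph1 (0.86), Acox2 (0.85), Dnali1 (0.85), Pifo (0.85) and Ccdc33 (0.84). Mlf1 and Mns1 are known from ciliated cells, Rsph1 encodes a protein of the radial spokes, Dnali1 an axonemal dynein light intermediate chain and Acox2 a peroxisomal oxidase. Of these 10 genes, 5 were in the list of other motile cilia genes and 1, Mlf1, in that of other ependymal genes. Their maxima lay in S5, Co16 or Co4, and the median r over all 15517 genes was 0.01. With Spearman correlation, or with profiles centred within each series, 9 of the 10 remained.

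The genes nearest to a single member, chosen after the values had been seen, differed between Foxj1 and the others. Among the nearest to Foxj1 were Plekhg3 (r = 0.88), Mycbpap (0.88), Arsg (0.87) and Pcolce2 (0.87), and 3 of these 4 were highest in C1, where Foxj1 was highest too. Arsg encodes a lysosomal sulfatase, and its r was 0.13 with Dynlrb2 and 0.14 with Tekt1. Nearest to Dynlrb2 were Ccdc33 (0.93), Mlf1 (0.91), Rsph1 (0.91), Pifo (0.89) and 1700028P14Rik (0.88). Nearest to Tekt1 were Mlf1 (0.91), Rsph1 (0.87), Morn5 (0.86), Mns1 (0.84) and Ccdc33 (0.83), so that Mlf1, Rsph1 and Ccdc33 stood in both lists.

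Of 97 other genes of the motile cilium listed, 52 had a probe, 37 of them above background on all arrays, and as a group they did not follow the 3 genes closely. Their median r with the mean profile was 0.30, against 0.01 over the 15517 other named genes. Above 0.5 were 16 of 52, against 324 of the 15517. By role, the median r was 0.62 for 12 tektins and tubule proteins, 0.41 for 8 axonemal dyneins, 0.28 for 10 proteins of the radial spokes and central pair, 0.16 for 6 regulators, 0.10 for 8 dynein assembly and docking factors and 0.02 for 8 proteins of the nexin links and doublet ruler. Within each role except the regulators the highest value was at least 0.785. The 29 genes of intraflagellar transport and the primary cilium had a median of 0.02, with 1 gene above 0.5. As with the correlations above, these carry no test.

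**Figure D5:**
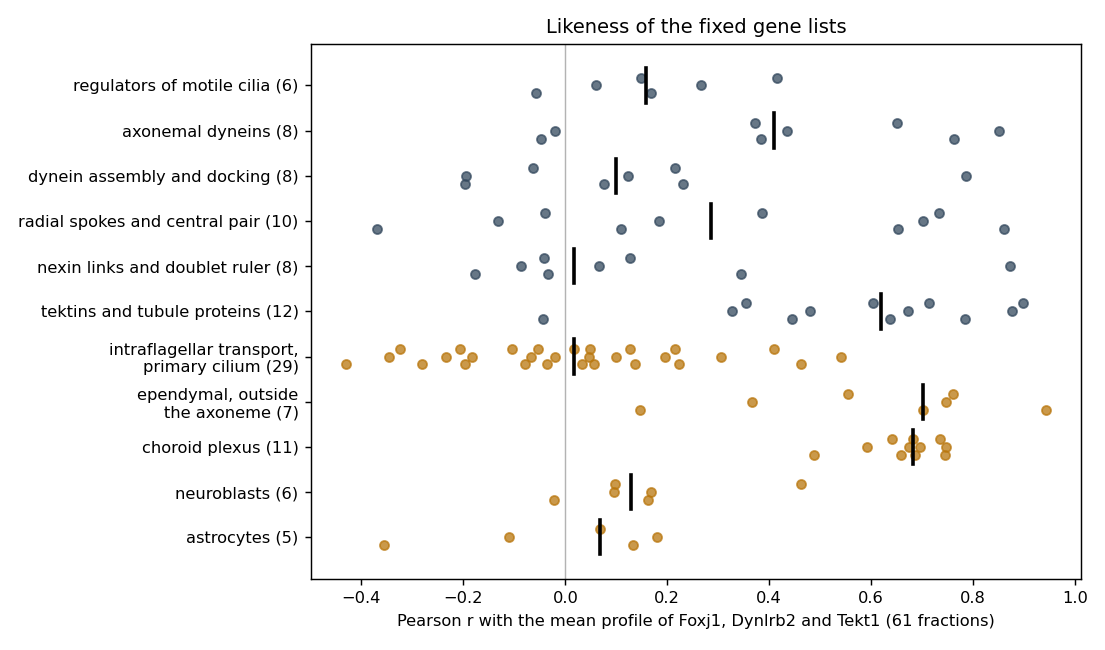
Pearson r of each gene with the mean profile of Foxj1, Dynlrb2 and Tekt1 over 61 fractions (horizontal axis), by gene list with the number of genes (vertical axis). Points are genes, dark blue for roles within the motile cilium and orange for other lists, and black bars are medians. The tektins and tubule proteins, the other ependymal genes and the choroid plexus genes had medians of 0.62, 0.70 and 0.68, and the primary cilium genes of 0.02.

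The list behaved most like the 3 genes along the dorsoventral axis. From dorsal to middle horizontal fractions 17 of 52 motile cilia genes rose and none fell in limma (23 and 1 at an unadjusted p under 0.05), with a median difference of 0.24 against -0.00071 over all probes. Among them were Dnali1 (2.26 ± 0.36, SE, adjusted p = 6.67e-05) and Rsph1 (1.26 ± 0.18, adjusted p = 1.55e-05). Over all probes the shares were 4.44% and 1.91%. None of the 29 primary cilium genes was called in either direction in limma (0 higher and 2 lower at an unadjusted p under 0.05). From middle to ventral fractions 3 of 52 motile cilia genes fell and none rose in limma, against 1.59% and 1.77% of all probes. At an unadjusted p under 0.05 in limma, 11 of 52 fell and 5 rose, against 2748 and 2570 of all 36573 probes.

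In the other planes the list moved in both directions. At the midline 15 of 52 were higher and 5 lower than in the outer sagittal fractions, with a median difference of 0.02. From the caudal to the middle coronal zone 27 rose and 6 fell, and from the middle to the rostral zone 6 rose and 21 fell. Between the ends of the axis 23 were higher rostrally and 15 lower. Over all probes these comparisons called 10.6% higher and 9.01% lower at the midline, 19.1% and 29.9% from the caudal to the middle zone, 13.0% in each direction from the middle to the rostral zone, and 20.2% and 27.5% between the ends, so that the share of the list lower rostrally was near that of all probes. Dnali1 was lower rostrally than caudally, by -1.24 ± 0.25 (SE, limma adjusted p = 0.000136), as Foxj1 was, whereas Rsph1 was higher, by 0.39 ± 0.13 (adjusted p = 0.0108). Over the list 18 of 52 genes correlated better with Foxj1 than with Tekt1.

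The genes of the list that varied most over the pairs were others. They were Drc1 of the nexin links (F = 61.0), Spag6l of the central pair (43.2) and Ccdc113 (22.9), with r of -0.18, 0.18 and 0.07 with the mean profile. Drc1 was lower at the midline (-0.58 ± 0.08, SE, limma adjusted p = 8.16e-07) and higher rostrally than caudally (1.66 ± 0.07, adjusted p = 1.06e-18), in both cases opposite to Foxj1. Gas8, another subunit of the nexin links, varied least (F = 0.67). In the primary cilium list Kif17 (30.9), Inpp5e (20.3) and Ift122 (10.8) varied most and Dync2li1 (0.56) least. Inpp5e, a phosphatase of the ciliary membrane, correlated with Foxj1 at 0.66 and with Tekt1 at -0.09. A level is relative to the RNA of the whole slab, because a fixed amount of RNA was used and each array was scaled. Fewer ciliated cells, less RNA per cell and more of other tissue in the slab therefore cannot be told apart.

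The members were set beside 7 other ependymal genes with a probe of 10 listed, all above background on all arrays. The list was chosen with earlier results of these data known, so it is no independent check of the label. The median r of the 7 genes with the mean profile was 0.70, and 5 of 7 were above 0.5, against 324 of 15517 named genes. From dorsal to middle horizontal fractions 5 of 7 rose and none fell in limma, against 4.44% and 1.91% of all probes. Mlf1 rose by 1.94 ± 0.23 (SE, limma adjusted p = 8.02e-07) and Cd24a by 1.67 ± 0.22 (adjusted p = 4.06e-06). Vim and Pltp had the lowest r, 0.15 and 0.37. Of the 7 genes, 6 correlated better with Foxj1 than with Tekt1. The summed linear level of the 7 genes, in units of the 75th percentile, ran from 7.48 to 10.7 dorsally and from 9.25 to 13.2 in the middle. Such a sum follows its strongest probes, and Vim had a mean intensity of 8365.5 against 203.4 for Mlf1. Along the coronal axis 4 of 7 fell and none rose from the caudal to the middle zone, against 29.9% and 19.1% of all probes. From the middle to the rostral zone 3 fell and 2 rose, against 13.0% in each direction. From the caudal to the rostral zone 5 of 7 fell and none rose, against 27.5% and 20.2% of all probes. Vim fell by 1.21 and Pltp by 0.81. The summed level ran from 17.3 to 23.7 in the caudal and from 6.43 to 17.6 in the rostral zone.

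Genes of the choroid plexus moved with the 3 genes in the horizontal plane. Of 11 with a probe of 13 listed, 5 were above background on all arrays. From dorsal to middle horizontal fractions 10 rose and none fell in limma, against 4.44% and 1.91% of all probes. The median difference was 2.51 over the 11 genes. Their summed level ran from 0.87 to 8.32 in the dorsal and from 10.8 to 17.7 in the middle fractions. Clic6 (2.32 ± 0.26, SE, limma adjusted p = 4.64e-07), Sostdc1 (2.39 ± 0.27, adjusted p = 5.08e-07) and Kl (2.20 ± 0.24, adjusted p = 2.97e-07) were among them, and Otx2, above background on 57 of 61 arrays, differed by 0.62 (adjusted p = 0.464). At the midline 4 of 11 were higher and none lower in limma (8 and 0 at an unadjusted p under 0.05), against 10.6% and 9.01% of all probes. The midline sums, however, ran from 7.78 through a median of 9.03 to 15.0. They lay within those of the outer fractions, from 0.61 through 10.1 to 17.7. In the rostral coronal zone 10 of 11 were lower than in the caudal zone and 1 was higher, against 27.5% and 20.2% of all probes. This comparison was chosen after the values had been seen. The sums ran from 1.95 to 5.17 rostrally and from 0.99 to 32.8 caudally. Over the 61 fractions the 11 genes had r between 0.49 and 0.75 with the mean profile. The part of the choroid plexus in the levels of the 3 genes was not tested.

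At the anterior end, where Dynlrb2 and Tekt1 were high, markers of the olfactory bulb and of neuroblasts were high as well. The summed level of Doc2g, Cdhr1 and Eomes was 83.6 in C13, 75.7 in Co15 and 61.5 in Co16, and ran from 0.32 to 1.30 in the caudal zone. That of 6 neuroblast genes with a probe of 7 listed was 14.2, 12.6 and 9.02 in these fractions and ran from 0.21 to 0.38 caudally. The neighbouring fractions C12 and Co14 also had high sums, of 58.3 and 56.8 for the bulb and 14.2 and 13.6 for neuroblasts. There, however, Dynlrb2 stood at -0.26 and -0.34 and Tekt1 at -0.10 and -0.15. Dcx, a gene of migrating neuroblasts, was higher rostrally than caudally by 3.48 ± 0.17 (SE, limma adjusted p = 4.83e-17). Dlx1 and Dlx2 had the largest F of the list (65.7 and 62.6) and were above background on 53 of 61 arrays. Top2a, a gene of dividing cells, was above background on 34 arrays. Over all 61 fractions the median r of these lists with the mean profile was 0.24 and 0.13. The choroid plexus sum in C13, Co15 and Co16 was 4.14, 5.17 and 6.49. The part of these tissues in the levels was not tested.

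Among the remaining marker lists, that of the thalamus had the highest median r. The median r with the mean profile was 0.56 for 3 thalamic genes, 0.34 for 5 hypothalamic genes, 0.20 for 3 genes of tanycytes, 0.17 for 3 striatal genes, 0.18 for 4 genes of the medulla and pons, 0.10 for 3 cerebellar genes, 0.07 for 5 genes of astrocytes and -0.02 for the hippocampal gene Spink8. Sspo, the gene of the subcommissural organ, had an r of 0.52 and its maximum in S5. With Foxj1 alone the thalamus had a median of 0.58, the medulla and pons of 0.49, astrocytes of 0.33 and the cerebellum of 0.31. With Tekt1 alone these medians were 0.40, -0.03, -0.11 and -0.02.

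The 3 genes did not differ detectably between the mice of a plane. Within pairs the second mouse minus the first gave an SD of 0.36 for Foxj1 and 0.41 for Dynlrb2 over the 28 pairs, and the 2 mice correlated at 0.91 and 0.86. Tekt1 was the least alike in the sagittal pairs, at r = 0.59. The largest disagreement was that of Dynlrb2 at s4, 1.09, where S4 stood at -0.37 and So5 at 0.72. None of the 3 genes was called between the mice in limma (F of 0.95, 1.24 and 1.80, adjusted p of 0.490, 0.373 and 0.221, and 0 of 3 at an unadjusted p under 0.05), against 63.1% of all probes. The mean differences were 0.07 ± 0.11 (SE), -0.11 ± 0.10 and 0.15 ± 0.14 for Foxj1 in So minus S, Co minus C and Ho minus H. A p-value above the threshold does not show that the mice were alike, and mouse and cutting angle cannot be told apart, nor, in the sagittal and coronal planes apart from S1, can scan day. H and Ho were scanned on the same day.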

How the data were processed

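Total RNA of 61 brain slabs was measured on single-colour Agilent whole mouse genome arrays, 1 array per slab. The authors deposited scanner output of Agilent Feature Extraction 9.1.3.1, whose intensity values (background-subtracted processed signal on a linear scale) were used. They also deposited a value table of intensities normalized per array in GeneSpring by the authors. It covers 36558 probes, and the log2 of its values served as an alternative.

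Intensities of the 43379 non-control spots were averaged to 41174 probes, leaving out spots marked as outliers unless a probe had no other spot on that array (2235 values). Each array was scaled to its 75th percentile, which ran from 740 to 1971 intensity units, and log2 was taken. No spot was saturated. Spots of the same probe differed by an SD of 0.064. Probes well above background on at least 1 array (36573) were tested. Genes were named through RefSeq identifiers, which gave 22951 probes a symbol. The number of arrays limits the precision.

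Zones were set by fraction number: s4 to s6 against s1, s2, s8 and s9, c1 to c4, c5 to c9 and c10 to c13, and h1, h2 against h3, h4 against h5, h6. The 56 paired arrays were fitted with limma 3.58.1 in R 4.3.3 as 28 pair means (28 residual degrees of freedom), with a moderated F over the pairs, moderated contrasts between zones and Benjamini-Hochberg adjustment over all tested probes at 0.05. The study's methods used a one-way analysis of variance over these pairs. A fit with the pairs and 1 term per plane compared the mice. The 5 fractions without a partner (So1, Co1, Co13, Co16, Ho1) entered the values and the correlations only. On simulated data with 36573 probes, 42 of 100 probes varying over the pairs with an SD of 0.3 and 72 of 100 with an SD of 0.6 were recovered. The alternatives were other scalings, background correction, filters, probes, blocks and leaving out each array.

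The members and gene lists were chosen with earlier results of these data known. Beside the members, the genes named were the 10 most like their mean profile, the 3 with the largest and the 1 with the smallest F of each list, and the defining markers of each tissue. Symbols are those of the RefSeq table used (GRCm38.p6), which also gave the promoters. 1 gene near Foxj1 in likeness is not reported here.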

Additional observations from a re-analysis of the deposited data

How the results depend on the processing

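The variation over the pairs, the sagittal and dorsal-to-middle horizontal results, and the absence of calls between mice kept their counts within 1.5 times under all settings run across the 3 planes. In the sagittal pairs alone 1 gene in place of 3 varied. In ventral against middle horizontal fractions 1 gene in place of 2 was called with median scaling and 1 with the authors' values. In rostral against middle coronal fractions 1 in place of 2 was called with the slide as a random block. In rostral against caudal fractions 3 in place of 1 were called with median scaling, 3 with the authors' values and 2 with normexp and quantile normalization. The cause was not tested. The slide had a consensus correlation of 0.54. The span of Foxj1 was 2.71 with normexp in place of 3.27.

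Leaving out each of 56 arrays gave 3 to 3 genes varying over the pairs, 2 to 3 in the sagittal comparison, 2 to 3 in middle against caudal, 1 to 2 in rostral against middle, 3 to 3 in middle against dorsal, 0 to 2 in ventral against middle, 1 to 2 in rostral against caudal, and 0 to 0 between mice. No difference that passed changed its sign.

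With mouse as a replicate block the counts were 3, 2, 3, 2, 3, 2 and 1 in the same order without the mice, so no call changed. Second-minus-first differences of pairs of a plane correlated over all probes with medians of 0.229, 0.332 and 0.113 in the sagittal, coronal and horizontal planes. Arrays limit these results through their number: 2 mice per level.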
